A study of Drosophila melanogaster with 28 samples.

Results

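Intervals of the Drosophila melanogaster genome known as piRNA clusters were examined in chromatin of testis tumours. The 3 intervals are 42AB (chr2R:6255432-6499291), 38C1 (chr2L:20148259-20227581) and flamenco (chrX:21631891-21790731), all in Release 6 coordinates. The members are every deposited 40-bp window inside these intervals, which gives 24096 windows of 6883112 in the series. Of these, 12191 lie in 42AB, 3964 in 38C1 and 7941 in flamenco. The 50 kb on each side of a cluster, called the lower and the upper flank by coordinate, served for comparison.

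Germline tumours carried y[1] w[1118] P{hs70FLP}, with GAL4::VP16-nanos.UTR over UAS-Upd and the reporter UAS-FRT-H3-GFP-FRT-H3-mKO. The nanos promoter is active in germ cells. Cyst tumours carried w[1118], with traffic Jam-GAL4 over UAS-Upd and the same reporter, and the traffic jam promoter is active in cyst cells, the somatic cells that enclose the germ line. Both tumour types thus express the JAK-STAT ligand Upd and tagged histone H3, and both were pools of about 18 to 20 testis pairs per strategy from crosses kept at 25 °C. Fixed cells were treated with an anti-GFP antibody and protein A fused to micrococcal nuclease, so that chromatin of the tagged cells was released. An aliquot served as input, and antibodies to H3K4me3, H3K27me3 or H3K9me3 were used for immunoprecipitation (IP) of the remainder. Each tumour type has 2 preparations for H3K4me3, 3 for H3K27me3 and 2 for H3K9me3, which makes 28 libraries with 942943 to 18199704 fragments each. The tumours differ in stock as well as in cell type, so strain background and tumour type cannot be told apart.

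The piRNA clusters are arrays of old and nested transposon copies, and their transcripts are cut into small RNAs that guide Piwi proteins to matching transposons. In ovaries, 42AB and 38C1 are read on both strands in germ cells, and the HP1 homologue Rhino binds their H3K9me3. The flamenco cluster is read on 1 strand, through the flam transcript, in somatic cells of the ovary, where it silences gypsy-type elements. H3K9me3 is a mark of heterochromatin, H3K27me3 of Polycomb repression and H3K4me3 of active start sites.

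The annotated flam transcript begins at the first base of its interval. The start sites shown here are those that the H3K4me3 results turn on for the clusters on X and 2L, as 15 bases before the start base, the start base and 14 after it, on the strand of the gene (RefSeq sequence of Release 6, starts of BDGP6.54). Capitals mark the initiator letters TCAGT, searched on both strands.
flam, chrX:21631876-21631905, plus strand: cttttgatttctcTCAGTtgctttatgacg
DIP1, chrX:21630134-21630163, minus strand: tccctacttaagttttttactTCAGTgcag
GCS2alpha, chrX:21605250-21605279, minus strand: cacttcggcgtatgtactgcatatttaaac
CG10651, chr2L:20134909-20134938, minus strand: ctctgtcagagcatacacaactctggttat
CG17571, chr2L:20257178-20257207, minus strand: actacaaggaagtatataatacttgggtta
In flam the letters fall with their A on the start base, and in DIP1 they begin 6 bases downstream of it. Of 18277 such windows of 30 bases over all annotated starts, 12.5% hold TCAGT on the strand of the gene and 14.5% hold it on either strand. The other 3 windows do not hold these letters.

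The clusters are mostly repeated sequence, which limits what any window in them can show. A 31-base sequence centred on a position occurred once in the genome at 26.1% of positions in 42AB, 26.6% in 38C1 and 20.6% in flamenco. The flanks of 42AB were unique at 99.8% and 99.9% of positions, and those of 38C1 at 92.4% and 89.4%. The flanks of flamenco were unique at 56.0% on the lower and 6.40% on the upper side. Annotated transposons covered 72.7% of 42AB (91 elements), 74.8% of 38C1 (46 elements) and 69.1% of flamenco (47 elements). Positions with no fragment in any of the 14 inputs made up 47.5% of 42AB, 59.5% of 38C1 and 66.2% of flamenco. Among unique positions this share was 9.13%, 6.17% and 20.2%, against 61.1%, 78.8% and 78.1% among repeated ones in the same order of clusters. How fragments that match several places were assigned is not given in the sources used here.

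Input libraries stood apart in flamenco. The 2 germline inputs of the H3K9me3 series had 0.0949 and 0.0901 there, in units of signal where the autosomal median is 1. The 5 other germline inputs had 0.193 to 0.234 (median 0.221), and the 7 cyst inputs had 0.171 to 0.189 (median 0.177). The germline H3K9me3 inputs thus lay below every other input and did not overlap with them. All of the H3K9me3 libraries were on 1 flow cell, and the cyst inputs on that flow cell, at 0.177 and 0.171, lay within or next to the range of the other cyst inputs. Relative to the flanks, the log2 ratio was -0.78 ± 0.01 in the germline H3K9me3 inputs (SD, n = 2) and 0.47 ± 0.08 in the other germline inputs (SD, n = 5). The exact 2-sided permutation p was 0.0952, the smallest that 2 against 5 libraries allow, and this split was chosen after the values were seen.

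The deficit was found in parts of the cluster. Input signal was tested in 5-kb bins over the genome with limma, and a bin was called at an adjusted p under 0.05 and a fold over 1.5. The germline H3K9me3 inputs were below the other germline inputs in 12 of 19 flamenco bins tested, against 0.206% of all bins (54 of 26276, of which 38 were among 4493 on X). The same contrast called 0 lower of 40 bins in 42AB and 0 lower of 11 in 38C1, and it called 1 bin of 42AB higher, against 0.609% of all bins. Between the cyst inputs it called 0 of 19 in flamenco, against 0.00381% of bins higher and 0% lower.

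Most of the called bins lay in 2 runs. In chrX:21655001-21675000 the germline H3K9me3 inputs had 0.109 and 0.0950, and the other germline inputs had 0.369 to 0.472. The cyst inputs had 0.115 to 0.140 there, so in this run the 5 other germline inputs were the high ones. In chrX:21730001-21770000 the germline H3K9me3 inputs had 0.119 and 0.115, the other germline inputs had 0.345 to 0.379 and the cyst inputs had 0.317 to 0.371. In this second run the 2 germline H3K9me3 inputs were the low ones. The bin at chrX:21760001-21765000 held 4 and 6 fragments in the germline H3K9me3 inputs, at a signal of 0.00535 to 0.00748. The same bin reached 0.331 to 0.400 in the other germline inputs and 0.386 to 0.501 in the cyst inputs. The bin next to it, chrX:21765001-21770000, separated all 3 sets, with 0.00374 to 0.00669, 0.196 to 0.227 and 0.423 to 0.609 in the same order. The germline H3K9me3 IP libraries were also low there, with 10 and 15 fragments in the first of these bins and 8 and 11 in the second. For H3K9me3 the flamenco level and the transposon classes are given with and without the 12 bins.

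**Figure D1:**
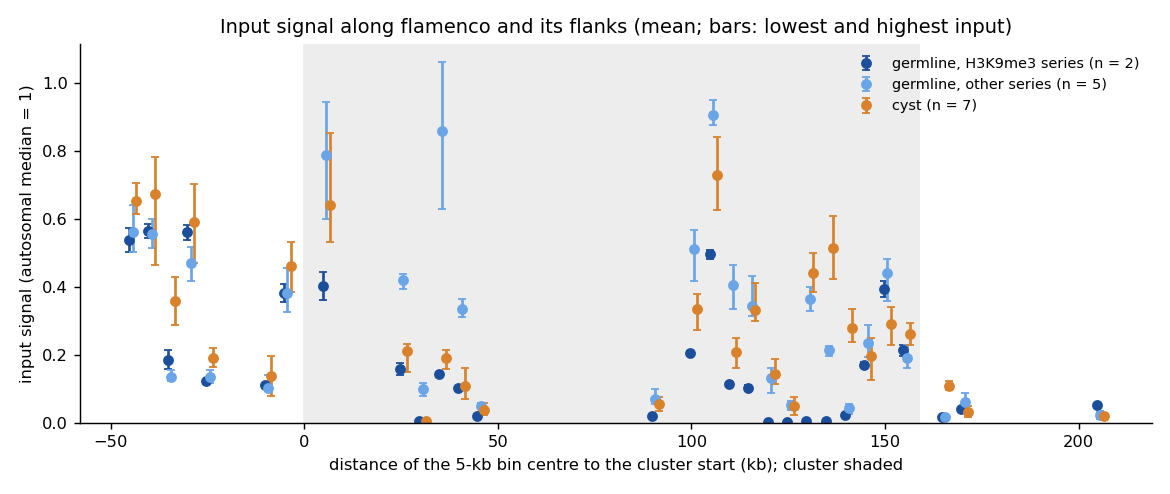
Input signal in 5-kb bins along flamenco and its flanks, by distance of the bin centre to the cluster start in kb; signal units as above, with 1 as the median of the autosomes. Points are means and bars run to the lowest and highest input of 2 germline H3K9me3 inputs, 5 other germline inputs and 7 cyst inputs; around 25 to 40 kb the other germline inputs stand above both other sets, and around 130 kb the germline H3K9me3 inputs are near 0.

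Input coverage of 42AB and 38C1 was well below that of their flanks in both tumour types. The 42AB signal ranged over 0.331, 0.351 and 0.387 (lowest, median and highest of 7) in germline inputs and over 0.374, 0.400 and 0.442 in cyst inputs. Its flanks averaged 1.10 ± 0.05 in germline and 1.17 ± 0.04 in cyst inputs (SD, n = 7 each). The 38C1 signal ranged over 0.284, 0.327 and 0.415 in germline inputs and over 0.329, 0.342 and 0.438 in cyst inputs. Its flanks averaged 0.936 ± 0.037 in germline and 0.914 ± 0.026 in cyst inputs. Over all positions, no input of either type reached the level of its flanks in these 2 clusters.

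On the log2 scale, 42AB lay at -1.62 ± 0.10 relative to its flanks in germline and at -1.53 ± 0.07 in cyst inputs, and 38C1 at -1.48 ± 0.18 and -1.36 ± 0.13 (SD, n = 7 each). The exact sign-flip p was 0.0156 for each, the smallest that 7 inputs allow. At unique positions alone the values were much nearer to the flanks. They came to -0.56 in germline and -0.49 in cyst inputs for 42AB (exact sign-flip p = 0.0156 for each), and to -0.22 and -0.14 for 38C1 (exact sign-flip p = 0.0313 and 0.0625), where some inputs reached the level of the flanks. The flamenco interval lay at 0.12 ± 0.62 in germline and at -0.24 ± 0.11 in cyst inputs, with sign-flip p = 0.609 and 0.0156 (exact). Its upper flank was nearly empty, at a signal of 0.0176 ± 0.0025 in germline and 0.0357 ± 0.0033 in cyst inputs, so the lower flank carries this ratio. Against the lower flank alone the value was -0.80 in germline and -1.11 in cyst inputs, whereas with flanks of 25 kb it was 0.98 and 0.48, so the sign depends on the flank.

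**Figure D2:**
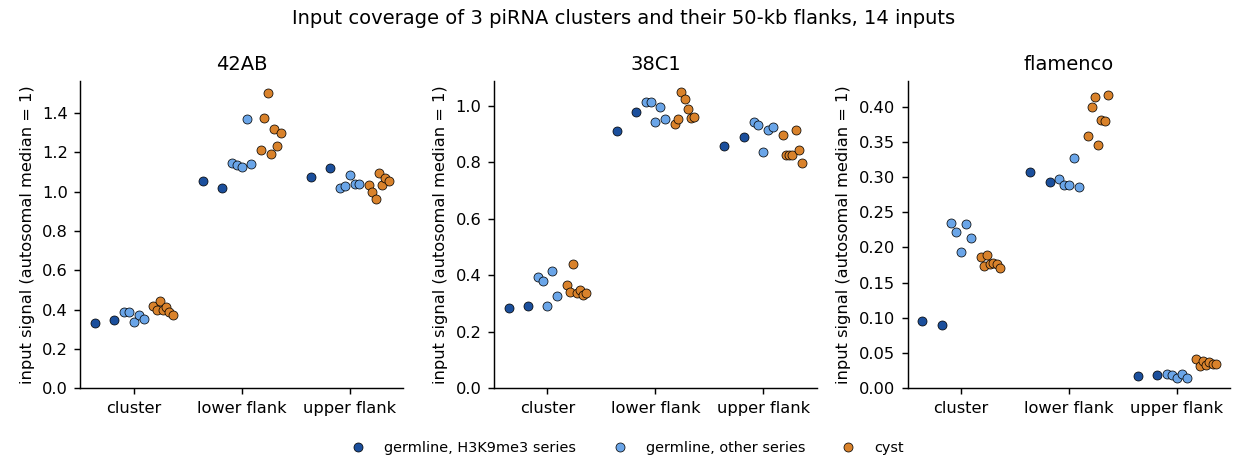
Input signal (autosomal median 1) of each cluster and of its lower and upper 50-kb flank, with 1 point for each of 14 inputs. In 42AB and 38C1 all inputs sit between 0.284 and 0.442 inside the cluster and higher in both flanks; in flamenco the 2 germline H3K9me3 inputs sit at 0.0901 and 0.0949, below all others.

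Between tumour types, the coverage relative to the flanks did not differ past the threshold in any cluster. The germline minus cyst difference was -0.09 for 42AB, -0.11 for 38C1 and 0.35 for flamenco on the log2 scale, with exact permutation p = 0.0793, 0.203 and 0.147 and an adjusted p of 0.203 for each over the 3 clusters. Against the lower flank alone the 42AB difference was 0.017 (exact p = 0.772), opposite in sign. Both tumour types share a flow cell for the H3K9me3 preparations and for the H3K27me3 preparations other than germline replicate 3, which was sequenced apart and is left out of the values within flow cells. Within those flow cells 42AB differed by -0.13 (exact p = 0.0333), by -0.21 among H3K27me3 inputs and by -0.05 among H3K9me3 inputs. The flamenco difference was 0.59 among H3K27me3 inputs and -0.47 among H3K9me3 inputs, opposite in sign. Without the H3K9me3 inputs it was 0.68 (exact p = 0.00794, the smallest that 5 against 5 inputs allow). This exclusion was chosen after the values were seen. The 2 germline inputs it leaves out were the lowest of all in flamenco, so this p is no test of tumour type.

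By 5-kb bin, germline inputs were lower than cyst inputs in 5 of 40 bins of 42AB, 1 of 11 of 38C1 and 2 of 19 of flamenco, against 0.270% of 26276 bins of the genome. They were higher in 3 flamenco bins and in none of the other clusters, against 0.263%. With the H3K9me3 inputs alone, germline was lower in 6 bins of 42AB and 5 of flamenco (against 1.36%) and higher in 1 bin of 42AB (against 0.803%). With the other inputs alone, it was lower in 4 bins of 42AB, 1 of 38C1 and 2 of flamenco (against 0.327%) and higher in 5 bins of flamenco (against 0.263%). The 3 higher bins make up chrX:21660001-21675000, where the germline H3K9me3 inputs did not share the excess. The 42AB bin with the largest difference, chr2R:6350001-6355000, had a log2 difference of -1.33 (limma adjusted p = 2.85e-08), and only 6.80% of its positions are unique. The 2 lower flamenco bins were chrX:21765001-21770000 at -1.42 and chrX:21770001-21775000 at -1.47 (limma adjusted p = 0.000872 and 1.14e-10). The second of them was as low in the H3K9me3 inputs (-1.54) as in the others (-1.43).

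Over each of the 3 clusters as a whole, H3K9me3 was above input in both tumour types, and its level was higher in germline than in cyst replicates. In 42AB the log2 IP/input was 0.56 and 0.64 in the germline replicates and 0.31 and 0.32 in the cyst replicates. In 38C1 it was 0.57 and 0.68 in germline and 0.23 and 0.20 in cyst. In flamenco it was 0.38 and 0.61 in germline and 0.26 and 0.31 in cyst. No cyst replicate reached a germline replicate in any cluster. The means were 0.60 ± 0.06 and 0.31 ± 0.01 for 42AB, 0.63 ± 0.07 and 0.21 ± 0.02 for 38C1, and 0.50 ± 0.17 and 0.29 ± 0.03 for flamenco, germline before cyst (SD, n = 2 each). With 2 replicates against 2 the exact permutation p was 0.33 for each, the smallest possible (adjusted 0.50 over 9 comparisons), so these differences cannot pass a threshold here. In pooled tissue, a mark on fewer cells and less of it per cell cannot be told apart.

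The flanks shared part of this signal. Relative to the flanks, H3K9me3 in 42AB was 0.51 ± 0.0038 in germline and 0.35 ± 0.0038 in cyst, in 38C1 0.31 ± 0.10 and 0.09 ± 0.0050, and in flamenco 0.41 ± 0.02 and 0.26 ± 0.02. The cluster exceeded its pooled flanks in 4 of 4 preparations in each case, and germline and cyst did not overlap. The exact sign-flip p was 0.125, the smallest that 4 allow. The upper flank of flamenco, nearly empty in the inputs, adds little to its pooled flanks. In cyst replicates this upper flank alone was above the cluster, at 0.33 and 0.46 against 0.26 and 0.31. In germline replicates it was below the cluster, at 0.21 and 0.39 against 0.38 and 0.61. The lower flank of 38C1 held H3K9me3 of its own, since chr2L:20105001-20110000 had 0.81 in germline and 0.67 in cyst, and chr2L:20110001-20115000 had 0.85 and 0.43. Without the 12 flamenco bins named above, flamenco H3K9me3 was 0.35 ± 0.19 in germline and 0.04 ± 0.03 in cyst preparations (SD, n = 2 each), and 0.26 ± 0.05 and 0.02 ± 0.02 relative to the flanks.

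**Figure D3:**
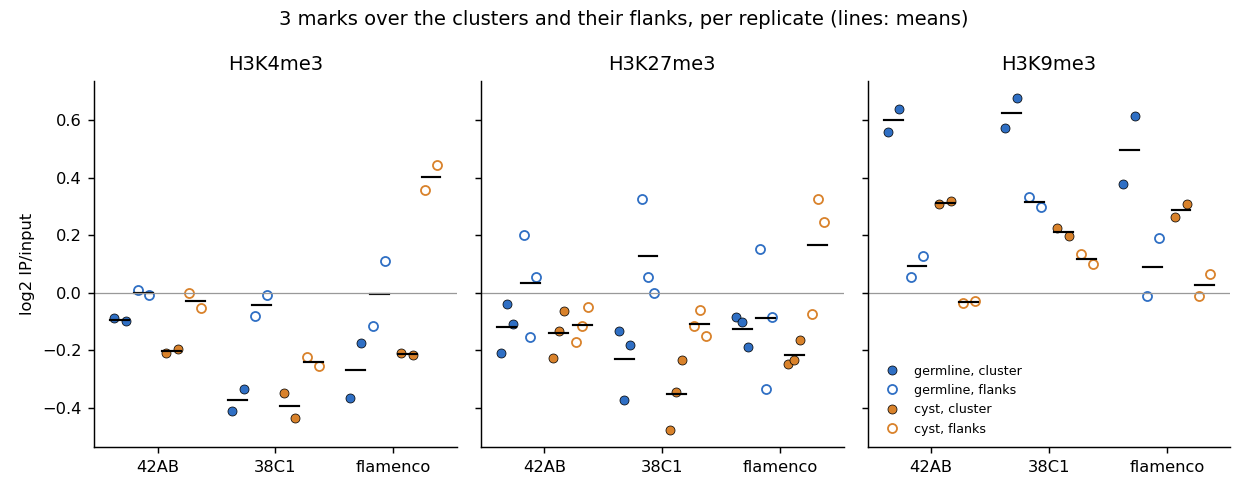
Log2 IP/input of 3 marks over each cluster (filled) and its flanks (open), with 1 point per replicate (2 for H3K4me3 and H3K9me3, 3 for H3K27me3) and a line at each mean. H3K9me3 in the clusters is above the pooled flanks and higher in germline (0.38 to 0.68) than in cyst (0.20 to 0.32). The other 2 marks lie below 0 in all clusters.

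In 5-kb bins tested over the whole genome, H3K9me3 passed the threshold over input in germline in 12 of 43 bins of 42AB, 5 of 11 of 38C1 and 1 of 19 of flamenco, against 0.512% of 26372 bins, and no bin was below input, against 0.0758%. The 18 calls in germline were 35 by edgeR and 31 by DESeq2, and 1 when 0.5 was added to the signal in place of 0.1. The called bin of flamenco is one of the 12 named above. At an unadjusted p under 0.05 no bin was below input either, against 13.8% of bins, and edgeR called none. In cyst H3K9me3 passed the threshold over input in 3 of 43 bins of 42AB and in none of the bins of 38C1 and flamenco, against 0.538%. These 3 calls were 11 by edgeR, 10 by DESeq2 and 0 with 0.5 added. At an unadjusted p under 0.05 the cyst IP was above input in 5 bins of 38C1 and 9 of flamenco, against 20.3% of bins, and edgeR called 0 in 38C1 and 5 in flamenco. No bin was below input in cyst by either tool, against 1.40%, nor at an unadjusted p under 0.05, against 21.0%. All 11 bins of 38C1 had a positive log2 IP/input in germline, as did 41 of 43 in 42AB and 18 of 19 in flamenco. In cyst 9, 34 and 17 bins were positive in the same order. Beside 38C1 9 of 9 bins were positive in germline on each side. The lower and upper flanks had 2 and 9 of 9 beside 42AB, and 5 of 7 and 2 of 3 beside flamenco. In cyst they had 8 and 8 beside 38C1, 1 and 9 beside 42AB, and 2 and 3 beside flamenco. A positive sign was thus not particular to the clusters, and its share over the genome is not given here. The germline minus cyst difference passed the threshold in none of these bins, against 0.231% higher and 0.0190% lower over the genome. At an unadjusted p under 0.05 it was higher in 7 bins of 42AB and 7 of 38C1, against 8.63% of bins, and lower in 1 of flamenco, against 3.63%. edgeR on the recovered fragments also called none. With the replicate number as a block 1 bin of 42AB and 4 bins of 38C1 passed, all higher in germline. The shares above belong to the main limma fit. Those of the block, edgeR and DESeq2 fits over the genome are not given here, so their counts cannot be read as enrichment.

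By the mean of both tumour types, the highest H3K9me3 bin of 42AB was chr2R:6455001-6460000, at 0.74 in germline and 0.73 in cyst (limma adjusted p = 0.000985 and 0.000213). In 38C1 the highest was chr2L:20205001-20210000, at 0.84 and 0.47 (adjusted p = 0.000113 and 0.000712), and in flamenco chrX:21655001-21660000, at 0.61 and 0.45 (adjusted p = 0.00275 and 0.00658). The lowest bins were chr2R:6400001-6405000 at -0.01 and -0.15, chr2L:20220001-20225000 at 0.14 and -0.06, and chrX:21720001-21725000 at 0.12 and -0.12, all with adjusted p over the threshold in both tumour types. Bins with little signal are pulled towards 0 by the 0.1 added to the signal before the logarithm.

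The called bins of 42AB lay toward its ends. Split at the widest gap between called germline bins, a choice made from these H3K9me3 values and so a description with no test, the cluster has a lower segment (chr2R:6255432-6325000), a middle one (chr2R:6325001-6430000) and an upper one (chr2R:6430001-6499291). The middle segment is unique at 13.6% of positions, against 35.9% in the lower and 35.4% in the upper, and its input signal was 0.133 ± 0.016 in germline and 0.208 ± 0.016 in cyst inputs (SD, n = 7 each). Counted in fragments, its H3K9me3 was 0.47 and 0.50 in the germline replicates and 0.13 and 0.13 in the cyst replicates. The lower segment had 0.51 and 0.60 in germline and 0.37 and 0.33 in cyst replicates, and the upper segment 0.64 and 0.73 in germline and 0.34 and 0.42 in cyst. In 38C1 the middle segment (chr2L:20165001-20195000), with 3 bins tested, had 0.49 and 0.63 in germline and 0.04 and 0.09 in cyst. The lower segment had 0.78 and 0.81 in germline and 0.29 and 0.25 in cyst. The upper segment had 0.54 and 0.65 in germline and 0.30 and 0.23 in cyst, so in germline it overlapped with the middle.

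**Figure D4:**
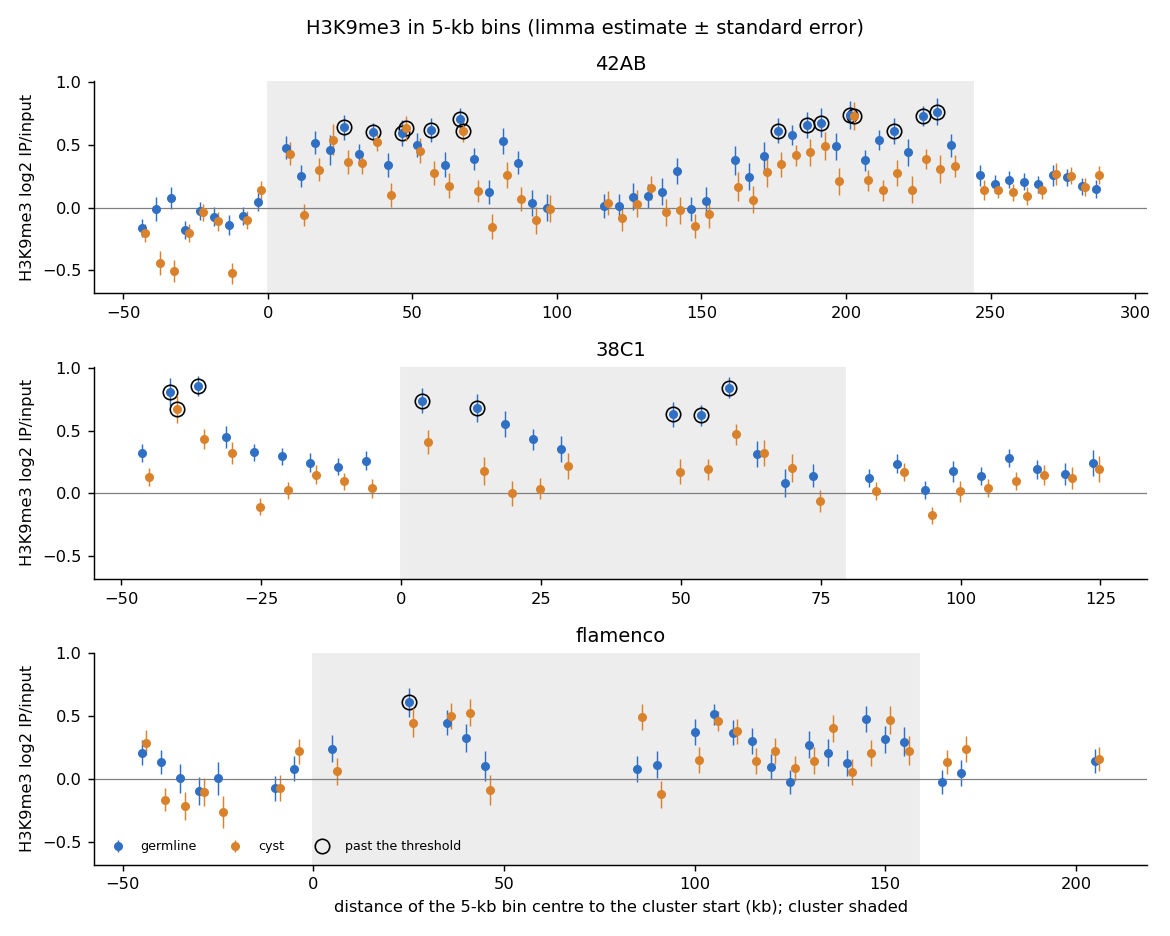
H3K9me3 log2 IP/input in 5-kb bins along each cluster (shaded) and its flanks, by distance to the cluster start in kb; points are limma estimates on log2(signal + 0.1), bars are standard errors and rings mark bins past the threshold. Germline points with rings number 12 in 42AB, 5 in 38C1 and 1 in flamenco; cyst points with rings inside the clusters number 3, all in 42AB.

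Over all bins, H3K9me3 was above input both over transposons and over other sequence, and the levels of these classes were not tested against each other. In 42AB transposon positions that are unique had 0.56 ± 0.08 in germline and 0.28 ± 0.01 in cyst, repeated transposon positions 0.62 ± 0.05 and 0.35 ± 0.03, and unique positions outside transposons 0.66 ± 0.0027 and 0.36 ± 0.01 (SD, n = 2 each). In 38C1 unique transposon positions had 0.73 ± 0.06 in germline and 0.25 ± 0.04 in cyst, and unique positions outside them 0.34 ± 0.08 and 0.12 ± 0.02. In flamenco these 2 classes had 0.41 ± 0.18 and 0.55 ± 0.15 in germline and 0.10 ± 0.04 and 0.29 ± 0.06 in cyst. Without the 12 bins they had -0.11 ± 0.35 and 0.40 ± 0.18 in germline and -0.63 ± 0.02 and 0.07 ± 0.07 in cyst, on as few as 59 and 137 fragments. There the unique transposon positions were below input in 1 of 2 germline and 2 of 2 cyst replicates.

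Families of transposons were read where every H3K9me3 library held at least 100 fragments, a minimum chosen after the values were seen. In 42AB 17 of 42 families qualified, with germline means of 0.23 to 0.83 (median 0.57) and cyst means of -0.19 to 0.59 (median 0.21). In 16 of the 17 both germline replicates were above both cyst replicates. All 17 families compare the same 2 germline with the same 2 cyst preparations, and no such count was made outside the clusters. The largest was Rt1b, a non-LTR element with 4 annotated copies over 69.6 kb, at 0.52 and 0.61 in germline and 0.39 and 0.34 in cyst. The exception was gypsy12, at 0.61 and 0.68 in germline and 0.66 and 0.52 in cyst. Below the minimum the tumour types overlapped in S, on 94 fragments, at 0.70 and 0.64 in germline and 0.50 and 0.66 in cyst. They also overlapped in Dm88, on 81 fragments, at 0.19 and 0.50 in germline and 0.48 and 0.25 in cyst. Other families below it did not overlap, such as invader6, on 63 fragments, at 0.60 and 0.81 in germline and -0.10 and 0.27 in cyst. In 38C1 3 of 20 families qualified, of which the DNA transposon 1360 had 0.58 and 0.75 in germline and -0.17 and 0.11 in cyst replicates, while the non-LTR element G2 had 1.01 and 1.13 in germline and 0.90 and 0.64 in cyst replicates. In flamenco 1 of 24 qualified, the LTR element gypsy6, at 0.49 and 0.66 in germline and 0.48 and 0.44 in cyst replicates. None of its positions lies outside the 12 bins. Just below the minimum was INE-1, on 92 fragments, at -0.39 and 0.22 in germline and -0.56 and -0.48 in cyst replicates. Stalker4, the family with the greatest length in flamenco, had as few as 86 fragments and was at 0.41 and 0.55 in germline and 0.16 and 0.34 in cyst replicates. Without the 12 bins it had 0.04 and 0.74 in germline and 0.81 and 0.84 in cyst replicates, on as few as 21 fragments. Fragments of 1 copy and those of copies elsewhere in the genome cannot be told apart where the sequence is repeated.

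H3K4me3 was below input over the clusters as wholes in both tumour types. In 42AB it was -0.09 and -0.10 in the germline replicates and -0.21 and -0.20 in the cyst replicates. In 38C1 it was -0.41 and -0.34 in germline and -0.35 and -0.43 in cyst replicates, and in flamenco -0.37 and -0.17 in germline and -0.21 and -0.22 in cyst. All 4 preparations were negative in each cluster, with an exact sign-flip p of 0.125, the smallest possible. Each tumour type was sequenced on its own flow cell for H3K4me3, so in any H3K4me3 difference these cannot be told apart. Relative to the flanks, flamenco was at -0.27 ± 0.03 in germline and -0.61 ± 0.07 in cyst preparations (SD, n = 2 each), and the lower flank itself was at -0.09 and 0.14 in germline and 0.44 and 0.50 in cyst.

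By bin, H3K4me3 passed the threshold above input in germline in 2 of 38 bins of 42AB and in none of 38C1 and flamenco, against 3.36% of 26153 bins. It was below input in 2 bins of 42AB, 2 of 11 of 38C1 and 3 of 20 of flamenco, against 3.15%. In cyst it was above input in none of these bins, against 5.40%, with 1 bin of 42AB and 2 of flamenco above at an unadjusted p under 0.05 (24.7% of all bins) and edgeR calling 1 and 2. It was below input in 1 bin of 42AB and 2 of 38C1, against 1.61%. The highest bin by the mean of both tumour types in 42AB was chr2R:6275001-6280000, at 0.76 in germline and 0.42 in cyst (limma adjusted p = 0.000204 and 0.0207). The lowest was chr2R:6475001-6480000, at -0.93 and -0.75. In 38C1 these were chr2L:20150001-20155000 (0.26 and 0.08) and chr2L:20210001-20215000 (-0.50 and -0.70). In flamenco they were chrX:21715001-21720000 (0.28 and 0.42) and chrX:21760001-21765000 (-0.59 and -0.23).

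In 1 bin of 42AB the germline minus cyst difference passed the threshold upward (against 0.524% of bins) and in 1 of flamenco downward (against 0.837%). The 42AB bin, chr2R:6455001-6460000, had H3K4me3 IP signals of 0.733 and 0.815 over inputs of 0.378 and 0.336 in germline, and IP signals of 0.382 and 0.290 over inputs of 0.275 and 0.290 in cyst. Its IP exceeded input in both germline replicates and in 1 of 2 cyst replicates, with a log2 difference of 0.75 (limma adjusted p = 0.0485). The flamenco bin, chrX:21665001-21670000, had IP signals of 0.459 and 0.577 over inputs of 0.982 and 0.864 in germline, and IP signals of 0.220 and 0.176 over inputs of 0.169 and 0.157 in cyst (log2 difference -0.91, limma adjusted p = 0.0296). This is the stretch in which germline inputs outside the H3K9me3 series were above all others. Neither call held when any 1 preparation was left out. With the replicate block 3 bins passed upward, 2 of them in 42AB, and 2 downward, and the share over the genome in that fit is not given here.

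H3K27me3 was below input over each cluster in 6 of 6 preparations. In 42AB it was -0.21, -0.04 and -0.11 in germline and -0.23, -0.13 and -0.06 in cyst. In 38C1 it was -0.13, -0.37 and -0.18 in germline and -0.48, -0.35 and -0.23 in cyst. In flamenco it was -0.08, -0.10 and -0.19 in germline and -0.25, -0.24 and -0.16 in cyst. Germline and cyst replicates overlapped in all 3 clusters. The exact sign-flip p was 0.0313 in each, the smallest that 6 allow, and 0.0938 adjusted over 9 tests. Relative to the flanks only 38C1 was lower in all 6, at -0.36 ± 0.15 in germline and -0.24 ± 0.14 in cyst preparations (SD, n = 3 each; exact sign-flip p = 0.0313, adjusted 0.141). The IP of germline replicate 1 had 146 fragments in 38C1, the fewest of any library there.

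No 5-kb bin passed the threshold for H3K27me3 by limma in any cluster, and 0% did over the genome. At an unadjusted p under 0.05, germline IP was above input in 5 of 36 bins of 42AB and 2 of 18 of flamenco, against 13.2% of all bins. It was below input in 9 bins of 42AB, 4 of 11 of 38C1 and 3 of flamenco, against 10.6%. edgeR called none of them. With the replicate block 3 bins passed upward and 9 downward in germline, and the share over the genome in that fit is not given here. By the mean of both tumour types, the lowest bin was chr2R:6475001-6480000 at -1.02 in germline and -0.44 in cyst, which was also the lowest for H3K4me3. The highest was chr2R:6275001-6280000 at 0.75 and 0.68, which was also the highest for H3K4me3. In 38C1 the highest was chr2L:20150001-20155000 (0.46 and 0.14) and the lowest chr2L:20200001-20205000 (-0.87 and -0.50), and in flamenco chrX:21750001-21755000 (0.43 and 0.07) and chrX:21635001-21640000 (-0.97 and -0.25).

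Start sites were read for H3K4me3 within 500 bp on each side. The only annotated gene start inside a cluster is that of flam (FBgn0267704), and 27 lie in the flanks. Of these 28 starts 22 had enough fragments to be tested. In flam the signal was 0.667 and 0.615 in IP over 0.853 and 0.890 in input in germline, and 0.719 and 0.471 in IP over 0.747 and 1.19 in input in cyst. IP was below input in every replicate, on 16 to 32 IP fragments. By replicate the log2 IP/input was -0.30 and -0.46 in germline and -0.06 and -1.31 in cyst, so replicate 2 carries most of the cyst value. The log2 IP/input was -0.39 in germline and -0.61 in cyst (limma adjusted p = 0.257 and 0.0594), and the difference was 0.22 (adjusted p = 0.887). With the replicate block the cyst adjusted p was 0.0387.

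The start of DIP1, a gene for a double-stranded RNA binding protein, lies 1743 bp from that of flam on the other strand. It had 0.32 and 0.96 in germline and 1.13 and 0.35 in cyst replicates, and it passed the threshold in cyst (limma 0.54 in germline and 0.70 in cyst, adjusted p = 0.0782 and 0.0191; adjusted p of the difference 0.919). GCS2alpha, the catalytic subunit of glucosidase 2, had -0.26 and 0.47 in germline and 1.00 and 0.76 in cyst replicates, and passed in cyst (0.83, limma adjusted p = 0.0115; adjusted p of the difference 0.473). The nearest protein-coding start above flamenco, CG40813, lies 352327 bp away in repeated sequence and was not tested.

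Beside 42AB, jing, a zinc finger transcription factor whose start lies 2715 bp above the cluster, had 1.04 and 0.35 in germline and 0.77 and 0.42 in cyst. It passed in germline (0.60, limma adjusted p = 0.0373), and in cyst its 0.56 (adjusted p = 0.0432) was under the fold of 1.5. The divergent lncRNA:CR46075, whose window overlaps that of jing and shares its fragments, passed in germline (0.69, adjusted p = 0.0137), as did lncRNA:CR43905 (0.64, adjusted p = 0.0273). Pld, the phospholipase D gene below the cluster, had 0.62 and -0.48 in germline and 0.69 and -0.29 in cyst. The gene bin3, for an RNA methyltransferase, was below input in cyst (-0.66, adjusted p = 0.0254). Beside 38C1, CG10651 (0.59 and -0.07 in germline, -0.07 and -0.25 in cyst) and CG17571 (-0.52 and -0.23 in germline, 0.13 and -0.79 in cyst) did not pass. In all, 3 of 22 starts were above input in germline, and 0 were below, against 17.2% and 5.09% of 17736 starts, and 2 were above and 1 below in cyst, against 23.3% and 4.51%. Without germline replicate 1 or 2 none of the starts was above input in germline, and without cyst replicate 1 none was in cyst. None differed between tumour types, nor did any start of the genome (0%).

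**Figure D5:**
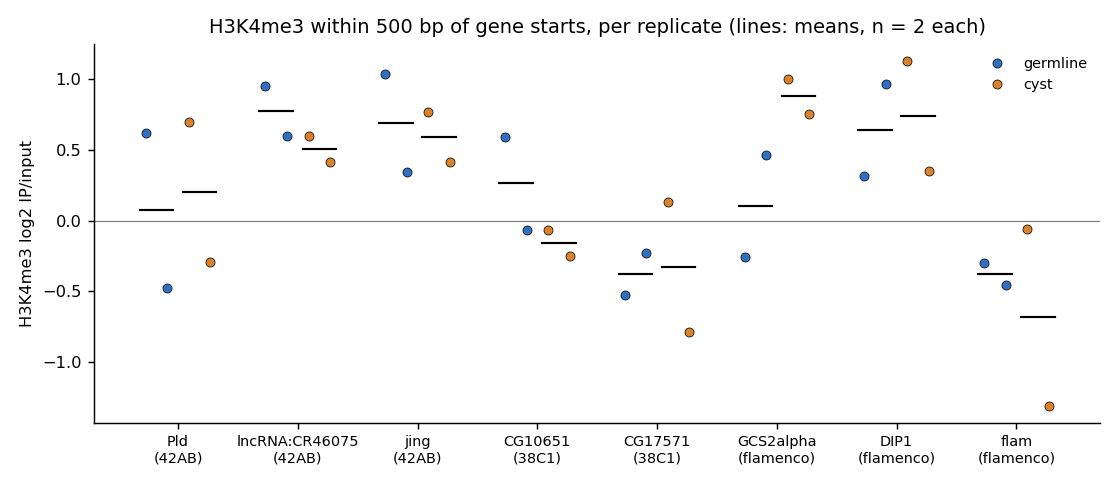
H3K4me3 log2 IP/input within 500 bp of the starts of flam and of 7 genes beside the clusters, with 1 point per replicate (2 germline, 2 cyst) and a line at each mean. All 4 points of flam lie below 0; those of jing, DIP1 and lncRNA:CR46075 lie above 0 in both tumour types.

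The genes that make and use piRNAs were read in the same fit. Of 19 germline piRNA factors 1 was above input and 2 below in germline tumours, and 3 above and 1 below in cyst tumours, with a median of 0.0014 and 0.10, against 0.16 and 0.19 over all starts. That list holds piwi, which also acts in the somatic pathway, and without it 1 of 18 was above and 2 were below in germline, and 2 were above and 1 below in cyst. Over all starts 17.2% were above input in germline and 23.3% in cyst. Of 16 factors that are shared with or belong to the somatic pathway, 6 were above input in germline and 8 in cyst, with a median of 0.49 and 0.62. None of these factors differed between tumour types. The start of piwi, the nuclear Piwi protein, had 0.24 and 0.44 in germline and 0.73 and 0.53 in cyst replicates, and passed in cyst (0.61, limma adjusted p = 0.0256). The start of fs(1)Yb, a gene of the somatic pathway, had 0.40 and 1.37 in germline and 1.81 and 0.74 in cyst replicates, and passed in cyst (1.18, limma adjusted p = 0.00310). The starts of aub, a germline Piwi protein, and rhi, which encodes Rhino, passed in neither, at -0.24 and 0.04 for aub and -0.08 and -0.10 for rhi. As a check of the labels, 9 germline markers had a median of -0.08 in germline and -0.08 in cyst, and 8 cyst markers 0.39 and 0.23. None of them differed between tumour types, so these marker starts do not tell the tumours apart. The germline markers include vas and aub, and the cyst markers include piwi, all of which are also in the list of germline piRNA factors. Among markers of other cells in the testis, the starts above input numbered 0 of 4 in germline and 1 of 4 in cyst for hub cells, 1 of 7 and 0 of 7 for spermatocytes, 0 of 5 and 0 of 5 for muscle, and 2 of 6 and 2 of 6 for hemocytes and fat body, against the same 17.2% and 23.3% of all starts. The medians were 0.48 in germline and 0.36 in cyst for hub, 0.25 and -0.39 for spermatocyte, 0.07 and 0.13 for muscle, and 0.14 and 0.32 for hemocyte and fat body markers. The spermatocyte list thus had a median difference of 0.51, against -0.06 over all starts, and no member of it differed past the threshold. Their part in the cluster values was not tested.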

How the data were processed

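The authors deposited a scaled coverage signal per library in windows of 40 bp with a step of 20 bp, per the file headers. The submitters' processing notes name Bowtie2 2.4.5 and dm6; for read filters and fragment limits nothing is given in the sources used here. All 7 chromosomes checked have the Release 6 length. All values above 0 (100%, tolerance 0.01) were whole multiples of 1 step per library, which gave whole fragments per 20 bp. Log2 IP/input of a cluster adds 1 fragment to each library and uses the input of the same number. limma 3.58.1 with a trend tested log2(signal + 0.1), an understated scale for low values, in 5-kb bins and at starts with a mean of 10 or more fragments, adjusted over all features (Benjamini-Hochberg). edgeR 4.0.16 and DESeq2 1.42.0 ran on recovered fragments. On simulated counts the bin model was tested with known changes, and the outcome is not given here. Those changes were larger than the IP/input values of the clusters, so the simulation does not bear on changes of that size. Input and IP of 1 number come from the same released chromatin, per the labels' protocols. Their deviations correlated over 0.1 in 8 of 14 pairs (-0.14 to 0.55). Where a mark has 2 replicates both pairs give the same value, so the 14 are not independent. The main limma fit did not use this pairing, and the replicate block did. Replicates are separate preparations only as far as the labels say, so p-values measure the spread between these libraries, and the depth per library limits precision through counting error. Genes and bins were named by a written rule: flam, the protein-coding start nearest to each border, other starts past a threshold, piwi, aub, rhi and fs(1)Yb, and for each cluster and mark the highest, the lowest and the differing bins. Members, lists and tests were chosen with earlier results of these data known.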

Additional observations from a re-analysis of the deposited data

Results flagged for a closer look

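One input stood apart within its group. The 38C1 coverage relative to flanks of cyst H3K27me3 input replicate 1 was -1.10 on the log2 scale, and the gap to the nearest of the other 6 cyst inputs was large against the range of the group. Of the 6 groups of 7 inputs examined in this way, chance gives a gap of this kind in about 1 in 20.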

How the results depend on the processing

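Over 60 results and 705 alternatives, 602 kept their direction and side of the threshold. Values below are log2 differences or counts of bins or starts, and shares over the genome under each alternative are not given. The cause of a change was not tested. The alternatives with the lower flank alone, without the 12 flamenco bins and without the H3K9me3 inputs were chosen after seeing the data. Input relative to flanks: 42AB germline minus cyst was 0.017 against the lower flank alone, -0.13 within flow cells and -0.11 to -0.07 with 1 input left out. 38C1 in cyst was -0.14 at unique positions. Flamenco germline minus cyst was 0.51 with 25-kb flanks, 0.68 with the H3K9me3 inputs left out and 0.28 to 0.50 with 1 input left out. Flamenco in germline was 0.98 with 25-kb flanks, -0.054 at unique positions, -0.43 by the median of 1-kb bins, -0.80 against the lower flank and -1.11 without the 12 bins; in cyst it was 0.48 with 25-kb flanks. H3K27me3 relative to flanks: against the lower flank alone 42AB was 0.042 (germline minus cyst) and 0.17 (both types); with 1 preparation left out these were -0.26 to 0.0048 and -0.13 to -0.03. 38C1 was -0.34 to -0.27 with 1 left out, where 5 preparations cannot pass. Flamenco was 0.021 with 25-kb flanks and -0.51 without the 12 bins. Germline minus cyst IP/input: 42AB H3K27me3 was -0.083 at unique positions, -0.019 by the median and -0.021 to 0.066 with 1 left out. 38C1 H3K4me3 was -0.034 by the median and -0.023 to 0.062 with 1 left out, and 38C1 H3K27me3 was -0.029 by the median. Flamenco H3K4me3 was 0.20 without the 12 bins and -0.15 to 0.039 with 1 left out; flamenco H3K27me3 was -0.025 at unique positions and -0.15 without the 12 bins. Bins over the 3 clusters: H3K4me3 above input in germline numbered 2, and 4 by edgeR, 0 with a pseudocount of 0.5, 4 with 0.02 and 13 in 1-kb bins; below input 7, then 12, 0, 11 and 36. In cyst above input they numbered 0, and 3 by edgeR, 2 with 0.02 and 1 in 1-kb bins; below input 3, then 7 by edgeR, 0 with 0.5, 6 with 0.02, 18 in 1-kb bins and 1 to 4 with 1 left out. The H3K4me3 difference was higher in 1 bin, and in 3 with the replicate block, 3 by edgeR, 2 with 0.5, and 0 by DESeq2, with 0.02, with no filter, in 1-kb bins and with any 1 left out; it was lower in 1, 2 with the block, and 0 by DESeq2, with no filter, in 1-kb bins and with any 1 left out. H3K27me3 in germline had 0, and 3 higher and 9 lower with the block; in cyst 0 to 2 were lower with 1 left out (2 without germline replicate 1). H3K9me3 in germline had 18, and 35 by edgeR, 31 by DESeq2, 1 with 0.5, 11 with TMM and 66 in 1-kb bins; in cyst 3, and 11, 10, 0 with 0.5, 9 with 0.02, 38 in 1-kb bins (3 lower) and 2 to 6 with 1 left out. Its difference had 0, and 5 with the block. Starts above input numbered 0 to 3 in germline and 0 to 2 in cyst with 1 left out; those below input in cyst were 2 with the block, 2 by edgeR, 2 within 250 bp and 0 to 2 with 1 left out. The flam start in cyst passed with the block (-0.61), by edgeR (-0.72) and within 250 bp (-1.18). Without cyst replicate 1, which leaves 1 cyst preparation, its value was -1.18. By these rules no other result was labelled as changed by the replicate block.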
